A study of Mus musculus with 6 samples.

Results

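The cornified envelope is the protein shell that replaces the plasma membrane of keratinocytes as they die at the skin surface. Small proline-rich proteins (Sprr), late cornified envelope proteins (Lce), loricrin and involucrin are its building blocks, transglutaminases crosslink them, and S100-fused proteins such as hornerin and trichohyalin embed keratin filaments. Most of these genes sit side by side in the epidermal differentiation complex, and several of them are known to be induced at the edge of skin wounds. The genes described here are those with a single symbol in the array annotation that starts with Lce or Sprr, or that is Rptn, Lor, Ivl, Hrnr, Flg2, Tchh, Tchhl1, Crnn, Casp14, Calm4, Tgm1, Tgm3, Tgm5 or Cnfn. They came to 46 of the 19938 genes measured, each read by a single probe set. In the RefSeq table of mouse assembly GRCm38.p6 all 46 were found under the same symbol, 40 of them on chromosome 3, and 2 of them, Sprr2g and Sprr2j-ps, are listed as transcribed pseudogenes. The other 6 lie elsewhere: Tgm3 and Tgm5 on chromosome 2, Cnfn on 7, Casp14 on 10, Calm4 on 13 and Tgm1 on 14.

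Total RNA of back skin, cut at full thickness, was hybridised to Affymetrix gene arrays. The donors were male BALB/c mice aged 5 to 6 weeks, an inbred albino strain with no transgene or drug named in the labels, and each group has 2 arrays. The labels do not say whether intact skin came from unwounded animals or from skin away from a wound, nor whether it was shaved like the wounded backs. Day 1 and day 4 wounds came from animals that had received 2 punch wounds of 4 mm down to the fascia, which was spared. All biopsies were taken with an 8 mm punch. By punch size, a wound as first made was 25% of the area of a wound biopsy. Its size when the biopsy was taken is not known here. Replicates are labelled as biological, with no word on how many animals or wounds went into an array, so p-values measure the spread between these samples alone. In such bulk samples, fewer cells of a type and less RNA per cell cannot be told apart. The median log2 intensity of an array was 6.89 to 6.93, with lower quartiles between 5.29 and 5.37 and upper quartiles between 8.47 and 8.54. The keratinocyte genes Krt5, Krt14 and Krt10, which mark the basal and suprabasal layers, lay above the upper quartile on all 6 arrays, with Krt5 between 12.60 and 12.71. Other suprabasal markers were dimmer, with Krt2 between 5.28 and 6.66 and Klk11 between 7.49 and 8.42. Replicate 2 of both wound groups stood apart from replicate 1 for hair follicle genes. The median log2 intensity of 21 inner root sheath and hair shaft markers was 11.81 and 11.80 in intact skin, 8.00 and 6.08 in day 1 wounds and 10.19 and 6.40 in day 4 wounds (replicates 1 and 2). For Crnn, Tchh, Tchhl1 and Sprr4 and for the list of hair markers, the changes are therefore also given from replicate 1 alone.

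On day 1, 28 of the 46 genes had risen above intact skin and 8 had fallen below it, and on day 4 the counts were 29 and 6 (limma's moderated test, Benjamini-Hochberg adjusted p under 0.05 over all genes). Calls in either direction covered 29.3% of all genes on day 1 and 26.9% on day 4. The rises were 60.9% and 63.0% of the 46 genes, against 14.7% and 14.8% of all genes. The falls, 17.4% and 13.0%, were near the 14.6% and 12.1% of all genes. The 2 comparisons share the intact arrays. At least 2-fold rises were called for 13 and 15 of the genes on day 1 and day 4 (4.83% and 3.78% of all genes). Falls of at least 2-fold were called for 4 genes on day 1 (2.40% of all genes) and for none on day 4 (1.75% of all genes), although the means of Crnn, Tchh and Tchhl1 lay far lower there. In all, 26 genes were called higher on both days, 6 lower on both days and 1, Rptn, lower on day 1 and higher on day 4. The median log2 change of the 46 genes was 0.52 on day 1 and 0.71 on day 4, where the median of all genes was −0.04 and −0.03. Many of the genes are close copies of each other, and a probe set of one may bind transcripts of another, so these counts are not counts of independent genes. Leaving out either day 1 array lowered the day 1 rises to 16. Leaving out intact skin replicate 2 lowered them to 17, and the day 4 rises to 19. The day 1 falls were 5 without day 1 wound replicate 2 or either intact array, and the day 4 falls were 3 without day 4 wound replicate 2 or either intact array. Calls that held whichever of the 6 arrays was left out were 16 of the 28 rises and 5 of the 8 falls on day 1, and 18 of the 29 rises and 3 of the 6 falls on day 4.

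**Figure D1:**
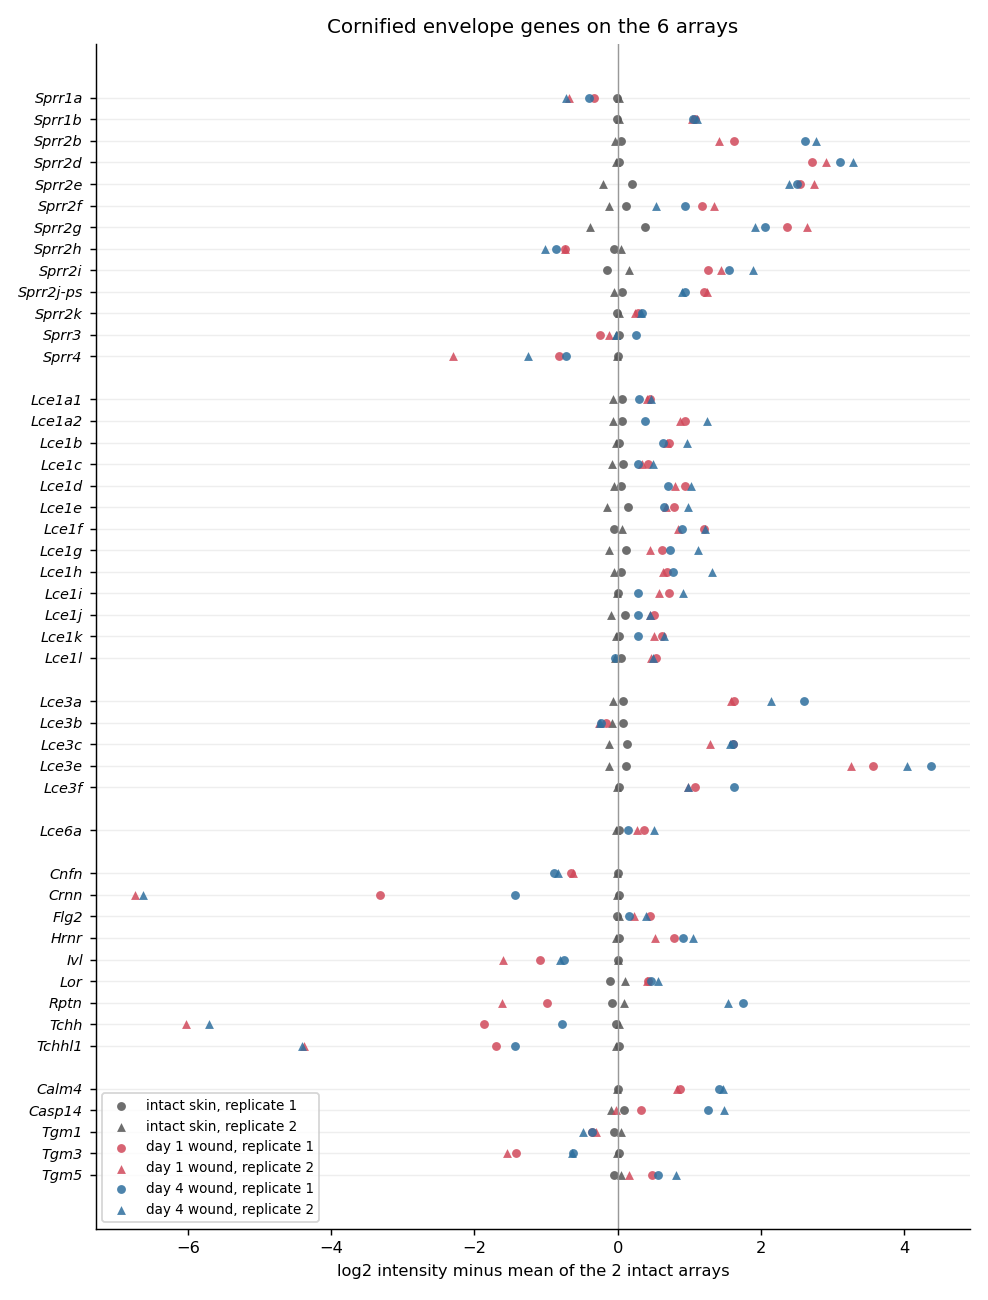
Each row is a gene and each point an array, placed at its log2 intensity minus the mean of the 2 intact arrays, with circles for replicate 1 and triangles for replicate 2 of intact skin (grey), day 1 wounds (red) and day 4 wounds (blue). Lce3e and Sprr2d lie farthest to the right on all 4 wound arrays, most Lce1 points form a narrow band to the right of 0, and Crnn, Tchh and Tchhl1 lie far to the left with their wound replicates apart.

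Small proline-rich proteins are short, repetitive envelope precursors that transglutaminases join into cross-bridges between other envelope proteins. Of the 13 Sprr genes measured, 9 rose and 3 fell on day 1, and 9 rose and 2 fell on day 4. On each day the risers were Sprr1b and the Sprr2 genes and pseudogenes other than Sprr2h. The family's median log2 change was 1.23 on day 1 and 0.92 on day 4, with a range from −1.56 to 2.82 and from −0.99 to 3.19.

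Sprr2d had log2 intensities of 7.53 and 7.49 in intact skin, 10.23 and 10.42 in day 1 wounds and 10.61 and 10.79 in day 4 wounds. All 4 wound arrays lay far above both intact arrays, and the rise was 7.04-fold on day 1 (log2 change 2.82, SE 0.10, limma adjusted p = 3.06e-05) and 9.13-fold on day 4 (log2 change 3.19, SE 0.10, adjusted p = 4.99e-05). Sprr2e lay at 7.42 and 7.02 in intact skin, 9.77 and 9.96 on day 1 and 9.73 and 9.61 on day 4, rises of 6.25-fold and 5.46-fold. The groups of Sprr2e again did not overlap with intact skin, and the days did not differ in the test (adjusted p = 0.529). Sprr2b lay at 5.39 and 5.31 in intact skin, 6.98 and 6.76 on day 1 and 7.96 and 8.12 on day 4. Its rise went in steps, 2.87-fold on day 1 and 6.45-fold on day 4. Sprr2g, listed as a transcribed pseudogene, lay at 5.27 and 4.51 in intact skin, 7.25 and 7.53 on day 1 and 6.94 and 6.81 on day 4, and was 5.66-fold and 3.96-fold higher. Sprr2i, Sprr2f and Sprr2j-ps rose by 2.56-fold, 2.39-fold and 2.34-fold on day 1 and by 3.31-fold, 1.66-fold and 1.89-fold on day 4, and Sprr2k by 1.20-fold and 1.26-fold. The Sprr2k calls were lost in 4 of the 6 fits without an array on each day, and the day 4 call of Sprr2f in 2. Sprr2g, Sprr2j-ps and Sprr2k on both intact arrays and Sprr2b on 1 of them lay under the lower quartile, and with no detection test for such dim values their folds are approximate.

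Sprr2h went against its neighbours. Its log2 intensities were 8.33 and 8.43 in intact skin, 7.64 and 7.64 in day 1 wounds and 7.52 and 7.37 in day 4 wounds. It was 1.67-fold lower on day 1 (log2 change −0.74, SE 0.08, limma adjusted p = 0.00141) and 1.91-fold lower on day 4 (−0.94, SE 0.08, adjusted p = 9.19e-04), and both calls held with any array left out. The 3 promoters below are shown because Sprr2d and Sprr2e rose most among the Sprr genes on day 1 and Sprr2h, in the same row of genes, fell. They are RefSeq sequences of GRCm38.p6 that end just before the transcription start, written 5′ to 3′ at chr3:92338935-92339139 (plus strand), chr3:92351938-92352142 (plus strand) and chr3:92385480-92385684 (plus strand). Capitals mark an AP-1 element (TGANTCA) and a TATA box (TATAAA).
Sprr2d: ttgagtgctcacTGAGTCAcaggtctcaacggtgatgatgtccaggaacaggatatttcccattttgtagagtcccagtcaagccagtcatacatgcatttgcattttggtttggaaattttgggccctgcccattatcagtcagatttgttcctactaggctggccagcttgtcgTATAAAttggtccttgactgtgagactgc
Sprr2e: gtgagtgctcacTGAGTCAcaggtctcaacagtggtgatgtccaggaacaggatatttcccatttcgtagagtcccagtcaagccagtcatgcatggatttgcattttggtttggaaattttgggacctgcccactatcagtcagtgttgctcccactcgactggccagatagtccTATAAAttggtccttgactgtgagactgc
Sprr2h: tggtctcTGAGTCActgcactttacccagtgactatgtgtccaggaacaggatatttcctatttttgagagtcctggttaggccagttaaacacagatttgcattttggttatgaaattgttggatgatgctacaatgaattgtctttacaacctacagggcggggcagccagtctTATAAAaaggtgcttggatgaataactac
The 250 bases before the start were searched on both strands in all 7 Sprr2 genes with an entry (Sprr2b, Sprr2d, Sprr2e, Sprr2f, Sprr2h, Sprr2i and Sprr2k). All 7 held a TGAGTCA copy of the AP-1 element that begins between 193 and 198 bases before the start, and a TATA box that begins 29 bases before it. Of 32851 promoters in all, 6.75% held an AP-1 element and 12.4% a TATA box in that window. The falling Sprr2h therefore carried the same pair of motifs at nearly the same places as the rising genes. After alignment, Sprr2h shared 81.2% of its 250 bases with Sprr2k and 66.8% to 70.8% with each of the other Sprr2 promoters. The 15 pairs among the Sprr2 promoters without Sprr2h shared 67.2% to 90%. Among these, the pairs of Sprr2d, Sprr2e, Sprr2f and Sprr2i shared 74.8% to 90%. A match is a description of letters and not evidence of binding.

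Outside the Sprr2 row the family split. Sprr1b lay at 11.27 and 11.30 in intact skin, 12.36 and 12.32 on day 1 and 12.33 and 12.39 on day 4. The 4 wound values lay close together, 2.08-fold above intact skin on day 1 (log2 change 1.06, SE 0.07, limma adjusted p = 2.34e-04) and 2.11-fold on day 4. Sprr1a, a close relative that is also known from injured nerve, lay at 13.29 and 13.32 in intact skin, 12.97 and 12.63 on day 1 and 12.91 and 12.59 on day 4. It was lower by a log2 change of −0.51 on day 1 (adjusted p = 0.0450) and −0.56 on day 4 (adjusted p = 0.0354), calls that were lost in 3 of the 6 fits without an array on each day. Sprr4 lay at 12.58 and 12.57 in intact skin, 11.76 and 10.28 on day 1 and 11.86 and 11.32 on day 4. Replicate 2 was the lower wound array on both days, the day 1 fall was called (log2 change −1.56, SE 0.45, adjusted p = 0.0425) and lost in 5 of the 6 fits without an array, and the day 4 value of −0.99 was not called. Sprr3, an esophageal type member, lay between 5.08 and 5.59 on all 6 arrays, under the lower quartile on 4 of them, and was not called. The promoter of Sprr1a is shown because it holds the AP-1 element 2 times, the first copy overlapping an antioxidant element (TGACNNNGC, here on the other strand). It covers 150 bases at chr3:92485882-92486031 (minus strand), with motifs in capitals.
Sprr1a: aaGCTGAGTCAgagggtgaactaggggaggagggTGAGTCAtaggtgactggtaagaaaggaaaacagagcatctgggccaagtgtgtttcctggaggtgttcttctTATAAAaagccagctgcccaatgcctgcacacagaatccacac
Sprr1b held an AP-1 element beginning 111 bases and a TATA box beginning 30 bases before its start, so the riser and the faller of this pair both carried these letters.

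Late cornified envelope proteins are small cysteine- and glycine-rich proteins deposited late in cornification. The Lce1 group is expressed in healthy skin, whereas Lce3 genes are known as an injury-responsive group in human skin. All but 1 of the 13 Lce1 genes measured rose on day 1 and 10 of 13 on day 4, within a narrow range of log2 changes from 0.39 to 1.03 and from 0.23 to 1.06. The medians were 0.65 and 0.80. The day 4 median was 0.38 without day 4 wound replicate 2. None of the 13 was lower than intact skin on the mean of either day, and limma called 0 of them between the days.

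Lce1f changed most, from 7.25 and 7.36 in intact skin to 8.51 and 8.15 on day 1 and 8.20 and 8.52 on day 4. No wound array overlapped with intact skin, and the gene was 2.04-fold and 2.08-fold higher (log2 change 1.03, SE 0.15, limma adjusted p = 0.00394 on day 1). Lce1d lay at 8.81 and 8.72 in intact skin, 9.71 and 9.57 on day 1 and 9.47 and 9.79 on day 4, 1.83-fold and 1.82-fold higher. Lce1a2 was 1.87-fold higher on day 1 (8.52 and 8.45 against 7.65 and 7.52), and its day 4 arrays lay apart at 7.96 and 8.83, a change that was not called (adjusted p = 0.0606). Lce1h lay at 10.66 and 10.56 in intact skin, 11.30 and 11.24 on day 1 and 11.38 and 11.92 on day 4, 1.58-fold and 2.06-fold higher. Lce1g, at 6.54 and 6.31 in intact skin, reached 7.05 and 6.88 on day 1 and 7.15 and 7.55 on day 4, 1.45-fold and 1.90-fold higher. Lce1e and Lce1b rose by 1.65-fold and 1.62-fold on day 1 and by 1.76-fold and 1.74-fold on day 4. Of the Lce1 rises those of Lce1b, Lce1d and Lce1f were called on both days whichever array was left out. For all 13 genes replicate 2 of the day 4 wounds was the higher array, by 0.17 to 0.87. Lce1l was not called on either day, at log2 changes of 0.50 and 0.23, and neither was Lce6a, at 0.32 and 0.33, whose adjusted p-values were 0.106 and 0.101.

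The Lce3 genes moved farther. Of the 5 measured, Lce3a, Lce3c, Lce3e and Lce3f rose at least 2-fold on both days, with a median log2 change over all 5 of 1.46 on day 1 and 1.59 on day 4. Lce3e lay at 4.41 and 4.17 in intact skin, 7.85 and 7.55 in day 1 wounds and 8.66 and 8.33 in day 4 wounds. Its wound arrays lay more than 3 log2 units above the intact ones, with a rise of 10.6-fold on day 1 (log2 change 3.41, SE 0.16, limma adjusted p = 6.80e-05) and 18.4-fold on day 4 (log2 change 4.21, SE 0.16, adjusted p = 7.39e-05), the largest of the 46 genes. Both intact values of Lce3e lay under the lower quartile, so the folds are approximate. Lce3a lay at 5.56 and 5.42 in intact skin, 7.11 and 7.07 on day 1 and 8.09 and 7.63 on day 4, 3.03-fold and 5.17-fold higher. Lce3c lay at 8.56 and 8.31, then 10.05 and 9.73, then 10.05 and 10, 2.74-fold and 3.01-fold higher, and Lce3f at 5.55 and 5.52, then 6.62 and 6.52, then 7.16 and 6.52, 2.05-fold and 2.47-fold higher. The day 1 call of Lce3f was lost in 4 of the 6 fits without an array. Lce3b lay under the lower quartile on all 6 arrays (between 4.88 and 5.22) and was not called, with log2 changes of −0.22 and −0.24. Between the days Lce3e and Lce3a differed by 0.80 and 0.77 (log2), with adjusted p of 0.0638 and 0.0628.

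The promoters of Lce3e, Lce3c and Lce3b are shown to set 2 risers beside the gene at the lower edge of detection. Each stretch is the 120 bases before the start in GRCm38.p6, at chr3:92966941-92967060 (plus strand), chr3:92944366-92944485 (plus strand) and chr3:92932859-92932978 (plus strand), and capitals mark the antioxidant element, read here on the other strand.
Lce3e: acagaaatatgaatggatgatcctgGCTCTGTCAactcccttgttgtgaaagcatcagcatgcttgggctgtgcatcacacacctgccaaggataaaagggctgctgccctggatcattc
Lce3c: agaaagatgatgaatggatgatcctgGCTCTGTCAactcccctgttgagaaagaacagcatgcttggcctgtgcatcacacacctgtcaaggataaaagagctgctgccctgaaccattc
Lce3b: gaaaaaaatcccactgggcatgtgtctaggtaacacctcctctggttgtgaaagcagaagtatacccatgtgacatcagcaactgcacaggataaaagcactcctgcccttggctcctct
Lce3e and Lce3c, whose promoters shared 82.8% of 250 bases after alignment, held the element as the same letters, beginning 95 and 94 bases before the start. Lce3b had no match in its 250 bases, and neither had Lce3a and Lce3f, which rose on both days. Lce3c held another copy 172 bases before the start. The element stood in 10.2% of all promoters, 2 of 5 Lce3 promoters and 1 of 12 Lce1 promoters. No Lce1 or Lce3 promoter of the 17 in the table held an AP-1 element, against 9 of 11 Sprr promoters. The Lce1 promoter shown is that of Lce1d, the one Lce1 promoter with a TATA box, at chr3:92687211-92687330 (minus strand), with the TATA box and an antioxidant element in capitals.
Lce1d: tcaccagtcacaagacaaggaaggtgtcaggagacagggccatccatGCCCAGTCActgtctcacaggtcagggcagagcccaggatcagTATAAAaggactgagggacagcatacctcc
Pairs of Lce1 promoters shared 60% to 85.6% of 250 bases after alignment (66 pairs), and pairs of genes from different families 52.4% to 65.6% (726 pairs).

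Loricrin, the main glycine-rich protein of the mature envelope, and involucrin, its early scaffold, moved in opposite directions. Lor lay at 11.71 and 11.92 in intact skin, 12.24 and 12.22 on day 1 and 12.28 and 12.38 on day 4. All 4 wound arrays were above both intact arrays, 1.33-fold on day 1 (log2 change 0.42, SE 0.09, limma adjusted p = 0.0188) and 1.43-fold on day 4 (0.52, SE 0.09, adjusted p = 0.0101). Ivl lay at 11.48 and 11.48 in intact skin, 10.40 and 9.88 on day 1 and 10.73 and 10.67 on day 4. All 4 wound arrays were below intact skin, 2.53-fold on day 1 (−1.34, SE 0.16, adjusted p = 0.00175) and 1.72-fold on day 4 (−0.78, SE 0.16, adjusted p = 0.0156). The Lor calls were lost in 3 and 2 of the 6 fits without an array and the day 4 call of Ivl in 4, while its day 1 call held in all 6. Cornifelin (Cnfn), a small envelope protein, fell too, from 12.61 and 12.60 to 11.95 and 11.98 on day 1 and 11.71 and 11.77 on day 4. That was 1.56-fold and 1.82-fold lower, and both calls held in all 6 fits without an array. The Lor promoter is shown because its AP-1 element begins 48 bases before the start, next to the TATA box, at chr3:92083143-92083262 (minus strand).
Lor: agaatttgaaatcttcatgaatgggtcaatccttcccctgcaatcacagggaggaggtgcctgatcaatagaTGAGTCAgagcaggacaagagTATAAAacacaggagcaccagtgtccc
Ivl, which fell, also held an AP-1 element (beginning 116 bases before the start) and a TATA box (29 bases before it).

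The S100-fused proteins carry calcium-binding hands followed by long repeats and bind keratin filaments. Of the 6 measured, hornerin (Hrnr), a filaggrin-like protein of the epidermis, rose on both days. It lay at 11.85 and 11.80 in intact skin, 12.61 and 12.35 on day 1 and 12.74 and 12.87 on day 4, 1.57-fold and 1.97-fold higher (limma adjusted p = 0.00543 and 0.00164). Flg2, its neighbour and relative, lay at 10.58 and 10.61, then 11.05 and 10.82, then 10.76 and 10.99. Its wound arrays were all above intact skin, but the changes of 0.34 and 0.28 were not called (adjusted p = 0.0684 and 0.120).

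Repetin (Rptn), an S100-fused envelope precursor, changed sign between the days. It lay at 7.97 and 8.14 in intact skin, 7.07 and 6.44 in day 1 wounds and 9.80 and 9.60 in day 4 wounds, with no overlap between any of the 3 groups. It was 2.46-fold lower on day 1 (log2 change −1.30, SE 0.20, limma adjusted p = 0.00458) and 3.13-fold higher on day 4 (1.65, SE 0.20, adjusted p = 0.00247). Both calls held with any array left out. The promoters of Rptn and of cornulin (Crnn), an S100-fused gene that did not follow it, are shown for comparison, at chr3:93393579-93393698 (plus strand) and chr3:93144669-93144788 (plus strand), each 120 bases.
Rptn: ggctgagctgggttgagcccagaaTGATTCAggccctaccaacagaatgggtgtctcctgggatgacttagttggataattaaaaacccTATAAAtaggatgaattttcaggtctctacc
Crnn: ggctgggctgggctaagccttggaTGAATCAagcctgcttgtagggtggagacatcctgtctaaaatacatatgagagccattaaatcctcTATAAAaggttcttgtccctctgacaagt
Both held an AP-1 element that begins 96 bases before the start, and a TATA box that begins 31 and 29 bases before it. The grainyhead site (AACCNGTT) stood 197 bases before the start of Rptn, the one match among the 44 promoter entries of these genes, against 1.79% of all promoters.

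Crnn, trichohyalin (Tchh) and trichohyalin-like 1 (Tchhl1) had the lowest mean changes of the 46 genes and no call in either comparison. Trichohyalin hardens the inner root sheath of the hair follicle. Crnn lay at 12.39 and 12.36 in intact skin, 9.06 and 5.64 in day 1 wounds and 10.94 and 5.75 in day 4 wounds. Tchh lay at 12.62 and 12.66, then 10.78 and 6.61, then 11.86 and 6.94. Tchhl1 lay at 11.17 and 11.12, then 9.44 and 6.77, then 9.71 and 6.74. All wound arrays were below intact skin, and replicate 2 was the lower array in every wound pair, with log2 differences from replicate 1 of −5.19 to −2.67. The log2 changes of Crnn, Tchh and Tchhl1 were −5.03 (SE 1.74), −3.95 (SE 1.80) and −3.04 (SE 1.12) on day 1, with limma adjusted p of 0.0756, 0.154 and 0.0897. On day 4 they were −4.03, −3.24 and −2.92, with adjusted p of 0.138, 0.232 and 0.104.

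From replicate 1 of the wounds alone, a comparison chosen after the values were seen and with no test, the changes were smaller. Crnn then lay below the intact mean by log2 changes of −3.32 on day 1 and −1.44 on day 4, Tchh by −1.86 and −0.78, Tchhl1 by −1.71 and −1.44, and Sprr4 by −0.82 and −0.72. The list of hair markers moved with these genes: 15 of 21 fell on day 1 and 9 of 21 on day 4, and 0 rose. The median change of this list from replicate 1 alone was −2.74 on day 1 and −1.63 on day 4, against −4.12 and −3.17 from both replicates. Its summed intensity on the linear scale was 76002 to 77194 on the intact arrays, 3582 to 13922 on day 1 and 4073 to 31819 on day 4, and none of its 21 genes lay under the lower quartile in intact skin. The part of hair follicle content in these changes was not tested. Over the other genes of the 46, replicate 2 differed from replicate 1 by more than 1 log2 unit for Sprr4 alone (on day 1), while among all genes 0.612% and 0.717% differed by that much on day 1 and day 4.

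**Figure D2:**
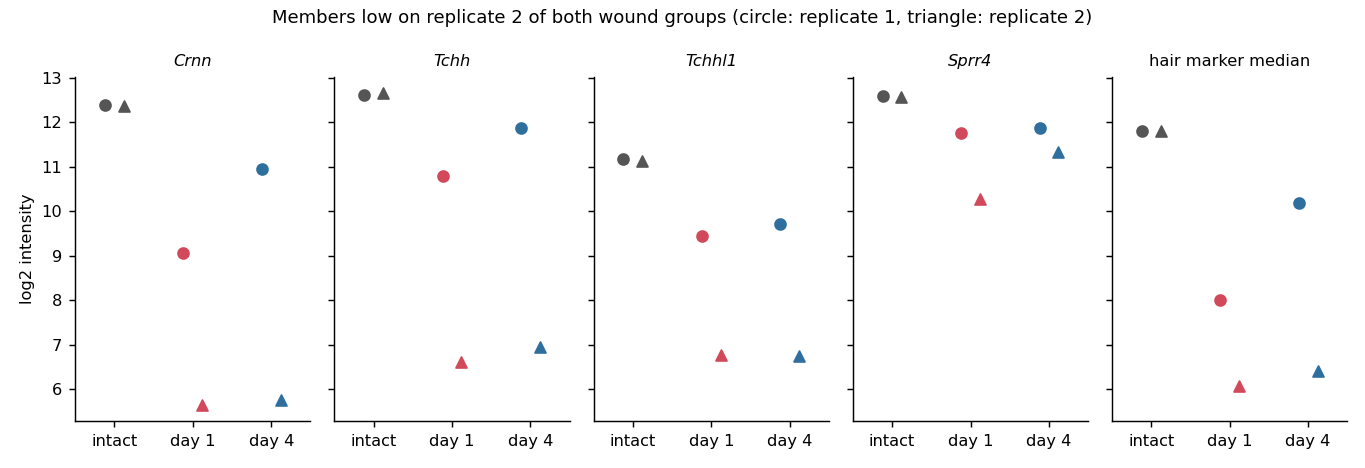
Points are the log2 intensities of Crnn, Tchh, Tchhl1 and Sprr4 and the median of 21 hair markers on each array, by group. Intact replicates coincide, while replicate 2 (triangles) lies below replicate 1 (circles) in both wound groups, down to 5.64 for Crnn and 6.08 for the hair markers.

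Transglutaminases join glutamine and lysine side chains of envelope proteins. Tgm3, which is active in the upper epidermis and the hair follicle, lay at 10.52 and 10.49 in intact skin, 9.08 and 8.96 on day 1 and 9.88 and 9.87 on day 4. It was 2.80-fold lower on day 1 (log2 change −1.49, SE 0.08, limma adjusted p = 9.32e-05) and 1.55-fold lower on day 4 (−0.63, SE 0.08, adjusted p = 0.00236). The groups were fully separate, with day 4 between the others. Tgm1, the membrane-bound enzyme whose loss causes lamellar ichthyosis, lay at 10.73 and 10.82, then 10.42 and 10.47, then 10.41 and 10.29. It was lower by −0.33 and −0.43 (adjusted p = 0.0249 and 0.0118), and these calls were lost in 4 and 3 of the 6 fits without an array. Tgm5 lay at 7.85 and 7.94, then 8.38 and 8.05, then 8.46 and 8.71, and was called higher on day 4 but not on day 1 (0.69, adjusted p = 0.0133), a call lost in 3 of the 6 fits without an array.

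Caspase 14 (Casp14), a protease that takes part in filaggrin breakdown in the cornified layer, lay at 9.85 and 9.67 in intact skin, 10.09 and 9.73 on day 1 and 11.02 and 11.25 on day 4. Its day 1 arrays overlapped with intact skin (adjusted p = 0.489), whereas day 4 was 2.59-fold higher (log2 change 1.38, SE 0.15, limma adjusted p = 0.00153). Calm4, a calmodulin-like calcium-binding protein of differentiating keratinocytes, lay at 9.40 and 9.39, then 10.27 and 10.22, then 10.81 and 10.86. It rose in steps, 1.80-fold on day 1 (adjusted p = 4.71e-04) and 2.71-fold on day 4 (adjusted p = 1.57e-04).

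Set directly against day 1, day 4 wounds were higher for 5 of the 46 genes (10.9%) and lower for 0 by limma's adjusted p, with 3 genes lower at an unadjusted p under 0.05. Of all genes 2.23% were called in this comparison, 1.09% higher. The 5 were Rptn (7.70-fold, log2 change 2.95, SE 0.20, adjusted p = 0.00816), Casp14 (2.34-fold, adjusted p = 0.0232), Sprr2b (2.25-fold, adjusted p = 0.0125), Tgm3 (1.81-fold, adjusted p = 0.0125) and Calm4 (1.51-fold, adjusted p = 0.0232). In each the 2 day 4 arrays lay above both day 1 arrays, but the calls depended on single arrays. Without day 4 wound replicate 1 limma gave 0 calls among the 46 genes (16 higher at an unadjusted p under 0.05) and 9 higher among all 19938 genes, and without day 1 wound replicate 2 or either intact array 1 was left. Rptn alone kept its call in 5 of the 6 fits, with an adjusted p of 0.0656 in the other. The largest value among all genes in this comparison was that of Rptn, 2.95.

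**Figure D3:**
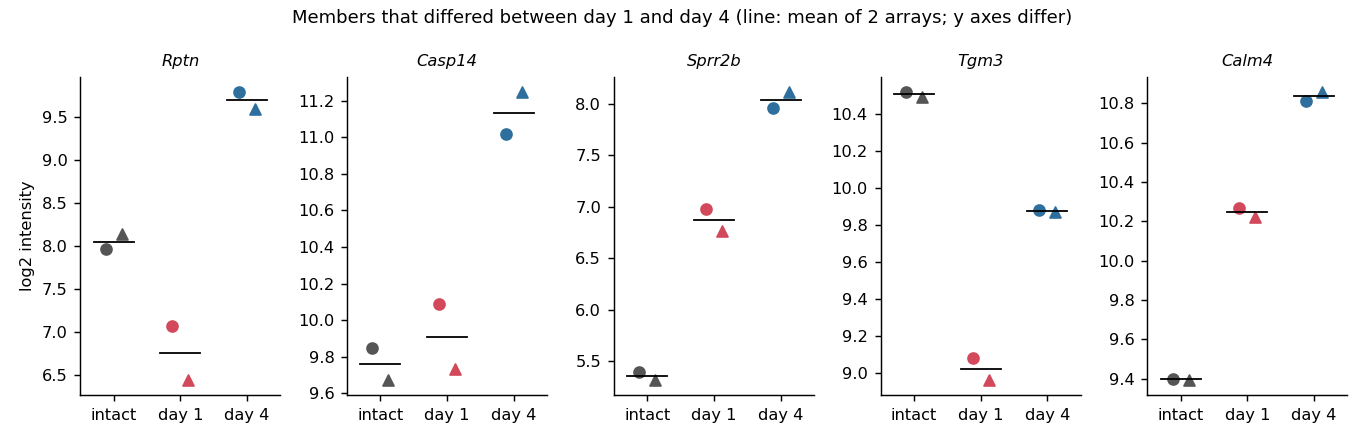
Points are log2 intensities on the 2 arrays of each group and lines their means, for the 5 genes called between day 1 and day 4, on y axes that differ between panels. Rptn dips to 7.07 and 6.44 on day 1 and lies at 9.80 and 9.60 on day 4, Casp14 moves on day 4, and Tgm3 has its lowest values on day 1.

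The changes of the 40 genes on chromosome 3 can be read along their order there. From one side of the complex to the other, Lor comes first, followed by the Sprr2 row, Sprr1b, Sprr3, Sprr1a, Sprr4 and Ivl. Then come Lce6a, the Lce1 row, the Lce3 row and finally the S100-fused genes Crnn, Flg2, Hrnr, Rptn, Tchh and Tchhl1. The order is that of the RefSeq table, and no coordinates of the array were used. Within the rows a change of direction fell between neighbours: Sprr2h (down) lies between Sprr2g and Sprr2i (both up), and Rptn (down, then up) lies between Hrnr (up) and Tchh (not called). From Sprr3 to Ivl no gene was called higher on either day, and from Lce6a to Lce1l none was called lower.

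**Figure D4:**
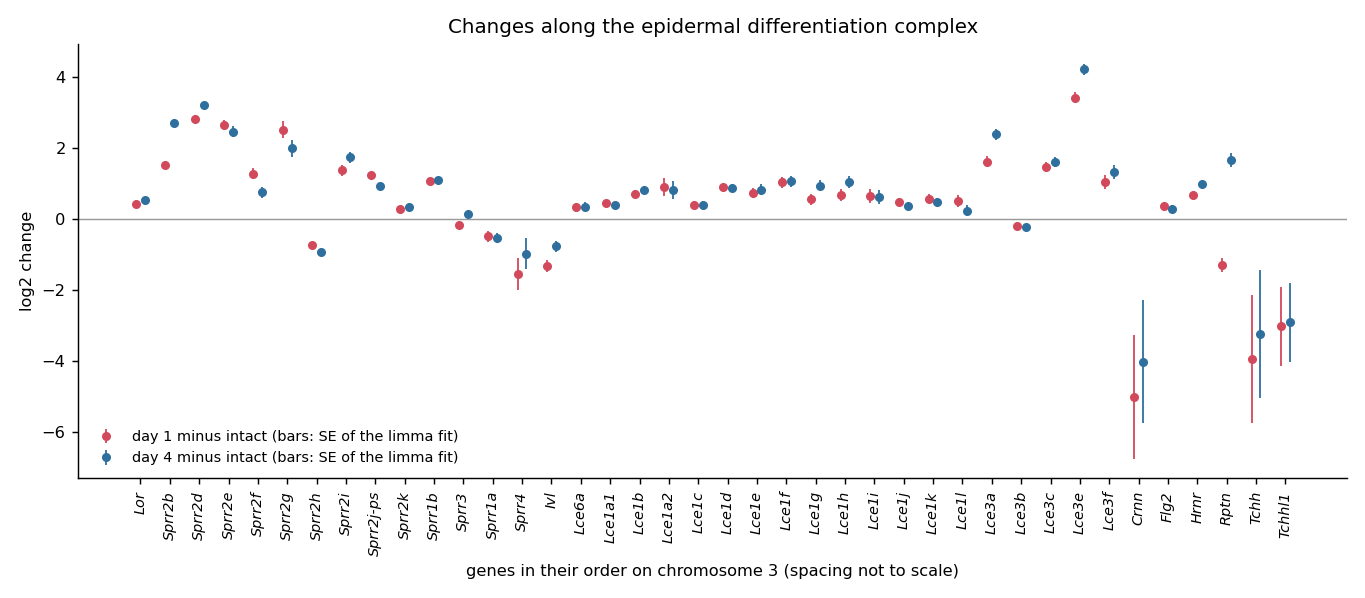
Points are log2 changes from intact skin on day 1 (red) and day 4 (blue), with bars for the SE of the limma fit, for the 40 genes in their order on chromosome 3. The Lce1 row lies evenly between 0.23 and 1.06, the Sprr2 and Lce3 rows are uneven with both the highest points and points below 0 (Sprr2h, Lce3b), and the bars are longest for Crnn, Tchh and Tchhl1.

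Other genes of cornification were read from lists, and the difference between these lists and the 46 genes was not tested. Of all genes, 14.7% were called higher and 14.6% lower on day 1, and 14.8% and 12.1% on day 4. A list count near these shares does not set the list apart from all genes. Of 9 other genes of the complex, 2 rose and 2 fell on day 1, and 1 rose and 2 fell on day 4. Prr9 was not called on either day, with its wound replicates apart as in Crnn. It lay at 12.13 and 12.20 in intact skin, 10.01 and 5.93 on day 1 and 11.13 and 6.32 on day 4. The peptidoglycan receptor Pglyrp3, at the edge of the complex, rose by a log2 change of 1.24 and 1.14. Them4 fell by 1.38 and 1.14, and Crct1 by 0.60 and 0.43. Of 18 plakins and corneodesmosome genes 3 rose and 3 fell on day 1, and 4 rose and 3 fell on day 4. The envelope scaffold proteins envoplakin (Evpl) and periplakin (Ppl) were among those that fell, as involucrin did. Evpl lay at 9.58 and 9.60 in intact skin and at 8.34, 8.15, 8.76 and 8.42 in the day 1 and day 4 wounds (2.54-fold and 2-fold lower). Ppl changed by −0.81 and −0.63 and the desmosomal plakophilin Pkp3 by −0.90 and −0.70, while Krtdap, a secreted product of suprabasal cells, rose by 0.78 and 0.74. Genes of these lists said to have risen or fallen passed limma's test over all genes on both days.

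Of 17 enzymes of the barrier lipids 5 rose and 4 fell on day 1, and 5 rose and 2 fell on day 4. The lipoxygenase Alox12b, which prepares ceramides for attachment to the envelope, rose by 1.20 and 0.83, and the dehydrogenase Sdr9c7 by 0.59 and 0.70. Pnpla1, which makes the acylceramides, fell by 1.20 and 1.05. Of 18 proteases, inhibitors and deiminases 3 rose and 7 fell on day 1, and 4 rose and 6 fell on day 4. Among the falls, those of the deiminases Padi1 and Padi4 were called on both days and that of Padi3 on day 1 alone. Replicate 2 of each was the lower array in both wound groups, as for the median of the hair markers. Padi3 lay at 11.27 and 11.36 in intact skin, 7.79 and 6.46 on day 1 and 9.85 and 6.55 on day 4. The serpin Serpinb12 rose by 1.53 and 2.29 and the kallikrein Klk8 by 0.71 and 1.31, whereas Prss8, a membrane-anchored protease of the barrier, fell by 1.31 and 1.21. Serpinb3a, at 2.43 and 2.66 in intact skin and between 3.08 and 4.28 in the wounds, was called higher but lay far under the lower quartile on every array.

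Of 21 transcription factors of terminal differentiation 9 rose and 8 fell on day 1, and 8 rose and 8 fell on day 4. Nfkbiz, an inducible NF-kB cofactor, rose by 1.64 and 1.11, and Nfe2l2, which acts through antioxidant elements, by 0.78 and 0.51. Grhl1, a grainyhead factor, fell by 1.15 and 0.86, and Zfp750, a regulator of late differentiation, by 0.85 and 0.90. Of 10 suprabasal markers 3 rose and 2 fell on each day. Krt1 rose by 0.51 and 0.84. Ly6g6d fell from 10.07 and 10.21 in intact skin to 6.97 and 6.36 on day 1 and 7.96 and 5.96 on day 4. Replicate 2 of Ly6g6d was the lower array in both wound groups, as for the median of the hair markers. Of 10 basal markers 7 rose and 1 fell on day 1 and 6 rose and 1 fell on day 4, Krt14 by 0.37 and 0.60 upward and Itga6, a hemidesmosome integrin, by 1.11 and 0.97. The faller was Cdh3 (P-cadherin), with log2 changes of −0.53 and −0.84. Of 10 wound-edge markers 8 rose and 0 fell on each day, with Krt16, a keratin of activated epidermis, higher by 3.37 and 3.79. Their list median was 1.54 and 1.72, beside medians of −0.04 and −0.03 over all genes. The summed intensity of these wound-edge markers was 8100 to 8810 in intact skin, 18176 to 19030 on day 1 and 20779 to 21095 on day 4, and that of the basal markers 17915 to 18845, 20971 to 22130 and 21952 to 22020. Krt17, the brightest wound-edge marker in intact skin (12.49 and 12.58), was not called, with log2 changes of −0.245 and −0.14. It weighs heavily in the intact sum. The part of a change in keratinocyte content in the rises of the Sprr and Lce genes was not tested.

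Markers of other cell types moved in the same biopsies. Of 14 neutrophil markers 12 rose on day 1 and 11 on day 4, with a summed intensity of 1385 to 1464 in intact skin, 17903 to 24227 on day 1 and 9904 to 12441 on day 4, and 2 of the 14 under the lower quartile in intact skin. Of 14 skeletal muscle markers 12 rose on day 1 and 8 on day 4, with a summed intensity of 20362 to 20614 in intact skin, 34073 to 35012 on day 1 and 24733 to 29272 on day 4. Of 10 sebaceous gland markers 2 rose and 2 fell on day 1, and 5 rose and 2 fell on day 4, with a summed intensity of 9617 to 9867 in intact skin, 8481 to 10530 on day 1 and 10138 to 12004 on day 4. Their part in the changes of the envelope genes was not tested.

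**Figure D5:**
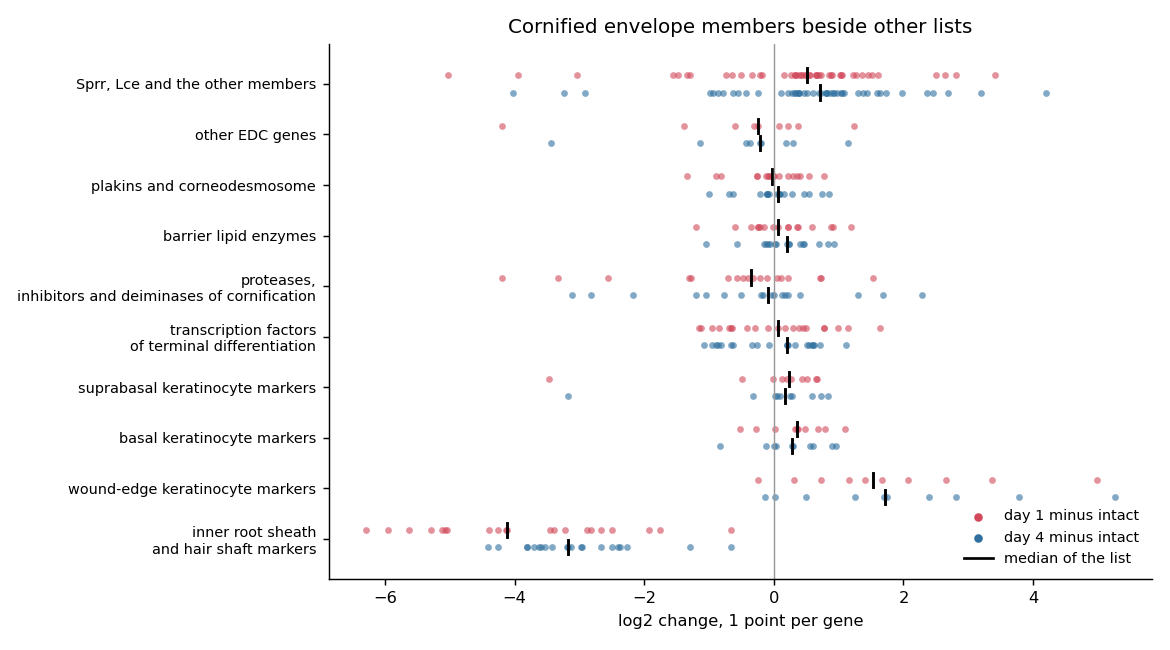
Each point is the log2 change of a gene on day 1 (red) or day 4 (blue) and each black line the median of its list, for the 46 genes and 9 other lists. The medians of the 46 genes lie at 0.52 and 0.71, those of the wound-edge markers at 1.54 and 1.72, those of the hair markers at −4.12 and −3.17, and those of the other lists shown between −0.36 and 0.36.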

How the data were processed

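Transcript levels were measured on 6 Affymetrix mouse gene arrays of skin RNA. The authors deposited log2 intensities of 35556 probe sets, rounded to 2 decimals. The submitters' processing notes name RMA without a version. Of the probe sets 21789 had 1 symbol in the array annotation, and for each gene the one with the highest mean was kept (19938 genes). Another 1621 had several symbols and 12146 were not in the annotation, and these gave no gene. Comparisons used limma 3.58.1 under R 4.3.3 (a mean per group over all 6 arrays, eBayes with the default prior, 3 residual and 3.4 prior degrees of freedom), two-sided, with Benjamini-Hochberg adjustment over all genes and a threshold of 0.05. The procedure was tested on simulated data. Other normalizations, priors, filters, probe set rules and thresholds, a replicate block and leaving out arrays were tried as alternatives. Folds are 2 raised to the log2 change. Promoters came from a RefSeq table of GRCm38.p6 that held 43 of the 46 genes (44 entries), and the 250 bases before the start were searched. Genes of the other lists were named from the 4 with the smallest moderated F p in each list, and not all of these are given. Prr9, Padi1, Padi3 and Padi4 were added for their split between wound replicates. Krt2, Krt5, Krt10 and Krt17 were added for their intensity. The genes and lists were chosen with earlier results of these data known. No library depth exists for arrays, and their number limits the precision.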

Additional observations from a re-analysis of the deposited data

Results flagged for a closer look

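The difference between day 4 and day 1 wounds, which is also the difference between their changes from intact skin, passed limma's test for 5 genes. These calls depended on single arrays, and with only the arrays of the 2 groups compared 1 gene was called higher. The log2 differences were 2.95 for Rptn, 1.23 for Casp14, 1.17 for Sprr2b, 0.86 for Tgm3 and 0.59 for Calm4. The 2 changes of each gene share the intact arrays.

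Outside the gene table, 4 probe sets carried several Sprr or Lce symbols and name no single gene. In day 4 wounds their log2 intensity was above that of intact skin by 3.49 for probe set 10493850 (4 symbols), by 3.325 for 10493856 and 10493858 (2 symbols each, identical values) and by 1.18 for 10493903 (6 symbols). The values of 10493850 were 9.39 and 9.33 in intact skin, 12.54 and 12.48 in day 1 wounds and 12.85 and 12.85 in day 4 wounds.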

How the results depend on the processing

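No family median against intact skin changed sign under quantile normalization, cyclic loess or median centring, and no called change of the 46 genes changed sign in any alternative. The day 1 median of Tgm1, Tgm3, Tgm5, Casp14 and Calm4 went from 0.15 to −0.03 without day 1 wound replicate 1. With an adjusted p under 0.01 there were 17 higher and 5 lower genes on day 1, 3 lower on day 4, 1 higher between the days and 23 by the F test (35 at 0.05). With only the arrays of the 2 groups compared, 1 gene was higher between the days. Without both wound replicates 2, each wound group held 1 array and most calls were lost. The lost calls included all of those on day 4, between the days and by the F test. The 1 residual degree of freedom of that fit comes from the intact pair in every comparison, and the fit is no evidence on single genes. Leaving out 1 array at a time, where the lone array is assumed to vary like the other groups, gave 16 to 30 higher and 5 to 9 lower on day 1, 19 to 32 and 3 to 7 on day 4, 0 to 4 higher between the days and 21 to 40 by the F test. Medians then ran from 0.58 to 0.69 for Lce1 and 1.30 to 1.62 for Lce3 on day 1, from 0.38 to 0.97 for Lce1 and 0.52 to 0.86 for all 46 genes on day 4, and from −0.10 to 0.085 for Sprr between the days. Without the dimmest 30% of genes the day 4 medians were 1.98 for Lce3 and 1.40 for Sprr, since dim members were left out. With the replicate number as a block (replicate block) 26 genes were higher and 10 lower on day 1, 27 and 8 on day 4 and 7 higher between the days, the falls of Crnn and Tchhl1 among those added on both days. The labels do not say that a number marks shared animals. Deviations from the group mean of same-numbered arrays correlated at 0.685 over all genes (0.926 over the 46) between the wound days. With intact skin they correlated at 0.0139 and 0.0227 over all genes (−0.161 and −0.0699 over the 46). Among the 46, the replicates lay farthest apart for Crnn, Tchh and Tchhl1, where replicate 2 was lower on both days. The pattern was not shared by all: replicate 2 of every Lce1 gene was lower on day 1 and higher on day 4.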
